A study of Mus musculus with 12 samples.

Results

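Transcripts of 10 heat shock protein genes were measured in mouse lung after bleomycin, with and without Huashibaidu granules. The genes were picked by name from the 56980 genes of the expression table: Hspa1a, Hspa1b, Hspa8, Hsph1, Dnajb1, Hsp90aa1, Hspd1, Hspe1, Hspb1 and Cryab. All 10 were detected in all 12 libraries and passed the filter on low counts, which kept 17827 genes. HBG mice (4 libraries) received 5 mg/kg bleomycin, a drug that injures the lung and is used to model fibrosis, by 1 dose into the trachea, and 7 g/kg of the granules, an herbal medicine, by mouth. Model mice (4 libraries) received the bleomycin dose and distilled water by mouth. Control mice (4 libraries) received distilled water by mouth and no bleomycin. All were male C57BL/6 mice of 6 to 8 weeks, and the tissue was whole lung. For the granules, the series text gives 1 week of dosing ahead of bleomycin and an end on day 28, whereas the sample text gives a start on day 7 and 14 days of dosing. Nothing in the labels states that a group's libraries come from different animals, so the spread behind each p-value may be technical. Pairs of libraries within a group differed by more than counting noise alone, with a chi-square per degree of freedom of 17.5 to 153. The source of that excess was not tested.

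Heat shock proteins are chaperones: they hold, fold or refold other proteins, and many are made in larger amounts when heat, oxidants or other injury damage proteins. HSP70 proteins bind exposed stretches of unfolded protein, J-domain proteins (HSP40) deliver the clients and drive the ATPase of HSP70, and nucleotide exchange factors release them. HSP90 finishes the folding of kinases and steroid receptors, the chaperonin of HSP60 and HSP10 folds proteins inside mitochondria, and small heat shock proteins hold unfolded proteins without ATP. The transcription factor HSF1 switches on the inducible members through heat shock elements, repeats of an nGAAn unit in alternating orientation.

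The stretches upstream of the start are shown for the members whose values stand out below or whose site is the longest. They come from RefSeq on build GRCm38.p6, run 5′ to 3′ on the strand of the gene, and mark in capitals every match to a pair of inverted units, GAANNTTC or TTCNNGAA. Hspa1a (chr17:34972157-34972406, minus strand), Hspa1b (chr17:34959239-34959488, minus strand) and Hspb1 (chr5:135887669-135887918, plus strand) are given over the 250 bases before the annotated start. The site between Hspe1 and Hspd1 (chr1:55088053-55088082, shown on the plus strand, the strand of Hspe1) and the site of Hsph1 (chr5:149636351-149636380, minus strand) are given over 30 bases.
Hspa1a: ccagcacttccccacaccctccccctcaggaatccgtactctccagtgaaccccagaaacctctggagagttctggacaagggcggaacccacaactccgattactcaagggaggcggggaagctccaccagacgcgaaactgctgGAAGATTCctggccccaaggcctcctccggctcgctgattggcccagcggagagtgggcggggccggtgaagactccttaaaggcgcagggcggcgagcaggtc
Hspa1b: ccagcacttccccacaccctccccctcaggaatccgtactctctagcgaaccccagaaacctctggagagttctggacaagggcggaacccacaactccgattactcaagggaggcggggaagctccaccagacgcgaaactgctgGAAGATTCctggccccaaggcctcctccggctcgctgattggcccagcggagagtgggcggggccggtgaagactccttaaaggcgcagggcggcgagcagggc
Hspb1: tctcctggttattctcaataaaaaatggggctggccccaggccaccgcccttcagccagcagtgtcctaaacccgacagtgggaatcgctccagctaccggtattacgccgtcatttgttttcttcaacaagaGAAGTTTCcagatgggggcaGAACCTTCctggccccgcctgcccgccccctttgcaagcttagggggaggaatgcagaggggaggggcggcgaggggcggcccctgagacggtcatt
Hspe1 and Hspd1: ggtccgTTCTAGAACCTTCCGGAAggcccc
Hsph1: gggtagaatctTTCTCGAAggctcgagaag

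The promoter table held 7 of the 10 members, without Hspa8, Hsp90aa1 and Cryab. Of these 7, 6 had a paired unit in the 250 bases before at least 1 annotated start and Dnajb1 had none. Counted by window, 7 of the 10 windows of these genes held a pair. Not all are separate sites, since Hspe1 and Hspd1 share theirs. Over all 32851 promoter windows of the table, from 27025 genes, 12.8% held such a pair on either strand. The upstream stretches of Hspa1a and Hspa1b differ at 3 of 250 positions, and both carry GAAGATTC from -104 to -97 and a CCAAT box on the opposite strand from -67 to -63. CCAAT was found in 33.8% of all windows, and TATAAA, not found upstream of any of the 7, in 12.4%. Hspb1 held 2 separate pairs, from -117 to -110 and from -97 to -90. Of the annotated Hspd1 starts, 1 lies beyond the Hspe1 start, so the genes overlap there, and its window held no pair. From the other Hspd1 start the genes are transcribed away from each other. The run between them lies from -89 to -72 before the Hspe1 start. It holds overlapping matches to 3 units in a row, GAA, TTC and GAA or TTC, GAA and TTC with any pair of bases between neighbours. These patterns read as each other on the opposite strand and were present in 0.466% of all windows. A match is a string of letters in this window and does not show that a factor binds there.

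**Figure D1:**
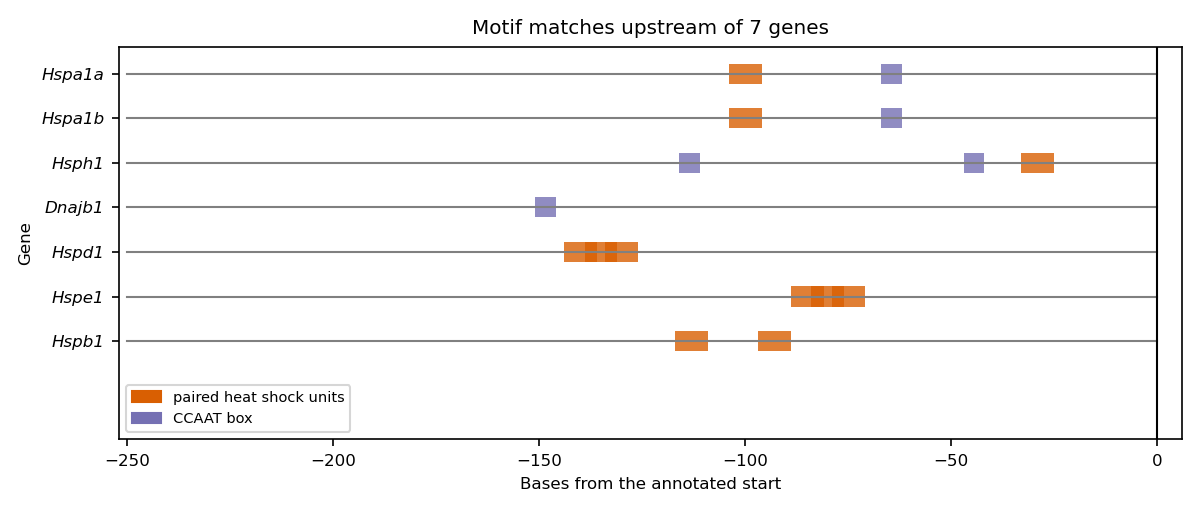
Position of motif matches in bases before the annotated start (at 0) for the 7 members in the promoter table. Each gene has 1 row and 1 annotated start, with paired heat shock units in orange and CCAAT boxes in purple. The pairs of Hspa1a and Hspa1b sit at the same distance, those of Hspd1 and Hspe1 are overlapping runs, and Dnajb1 has no pair.

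Library totals were 17979908 to 20752060 estimated counts in HBG, 19230871 to 22622450 in Model and 18864850 to 27150874 in Control. The largest total was that of Control 3, which also had the largest share of values that are not whole (15.1%). Whether this bears on its heat shock values was not tested. Levels below are CPM, read counts scaled to a common library size with TMM factors, and fold changes are log2 with their standard error from edgeR's quasi-likelihood test over all 17827 genes. Lung defining genes (10 markers, all detected in each group) summed to 33269–73045 CPM in HBG, 38637–58840 in Model and 64109–86759 in Control, so the tissue carries lung transcripts in every library. Several libraries stood apart. A list score, the mean log2 CPM of a marker list relative to the mean library, was 2.03 for T and B cells and 1.66 for erythroid cells in HBG 3, and 1.79 and 2.03 in Model 2. Cardiac muscle markers scored -2.30 in HBG 3, -1.71 and -2.48 in Model 1 and Model 3, and 2.06 in Control 2. In bulk tissue, fewer cells of a type and less RNA per cell cannot be told apart.

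Read per length, Hspa8 was the most abundant member, and Hspa1a and Hspa1b, each taken alone, were the least. Hspa8 averaged 781 ± 188 CPM per kb over the 12 libraries (SD), ahead of Hsp90aa1 with 250.2 ± 85.8 and Cryab with 223 ± 42.9 CPM per kb, whose spreads overlap. Hspb1 (82.2 ± 55.5), Hspe1 (68.5 ± 18.9), Hspd1 (62.8 ± 12.4) and Hsph1 (47.9 ± 21.4 CPM per kb) formed a middle group within each other's spread. Dnajb1 (17.0 ± 5.70), Hspa1b (10.9 ± 10.6) and Hspa1a (8.32 ± 5.80 CPM per kb) were lowest, again within their spreads. Hspa1a and Hspa1b share sequence (below), so how reads were divided between them, and their own places in this order, are uncertain. Between its highest and lowest library, Hspa1b varied 8.59-fold, Hspb1 8.47-fold and Hspa1a 5.93-fold, whereas Cryab varied 1.92-fold and Hspd1 1.78-fold.

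Model against Control sets mice given bleomycin into the trachea against mice without it. No tracheal dose is described above for Control mice, so the drug and its delivery cannot be told apart. In this comparison 9 of the 10 members had lower fold changes, where 48.5% of all genes did. Their median was -0.40 (0.759-fold), against 0.009 over all genes. Many members vary together across libraries (below). Counts of members, here and in the comparisons that follow, are therefore not counts of independent genes. No member passed an adjusted p of 0.05 (range 0.214 to 0.998), with 62 genes, 0.348% of those tested, passing. At an unadjusted p under 0.05 there was 1 member, Hspb1, where 11.7% of all genes were. In no member did all Model libraries lie below all Control libraries, a separation seen in 4.5% of all genes. With another tool 1 member passed, Hspb1, both by DESeq2, which called 2.5% of all genes, and by limma-voom with quality weights, which called 6.05%. Without Control 3 the median fold change of the 10 was -0.12, and without Control 4 it was -0.57.

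HBG against Model asks what the granules changed after bleomycin. The fold changes of 8 members were lower, where 49.9% of all genes were, with a median of -0.13 (0.916-fold). No member passed the edgeR test, nor did any gene (0%, and 2.43% at an unadjusted p under 0.05, none of them a member). DESeq2 passed 4 genes (0.0225%) and no member. The adjusted p was 1.0 for each member. No member had all HBG libraries below all Model libraries, as 0.673% of all genes had.

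In HBG against Control, all 10 members had lower fold changes, where 49% of all genes did, with a median of -0.55 (0.684-fold). Again 0 passed, with adjusted p from 0.280 to 0.837, where 27 genes (0.151%) passed. Hspb1, Hspa1b and Hspe1 had an unadjusted p under 0.05, as did 8.25% of all genes. Hspb1 was the member whose HBG libraries all lay below Control, a separation in 3.91% of all genes. DESeq2 passed Hspb1 and no other member, where it called 1.15% of all genes, and limma-voom passed no member, where it called 0.567%. This comparison shares its HBG libraries and its Control libraries with the others, so the 3 sets of fold changes are not independent.

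**Figure D2:**
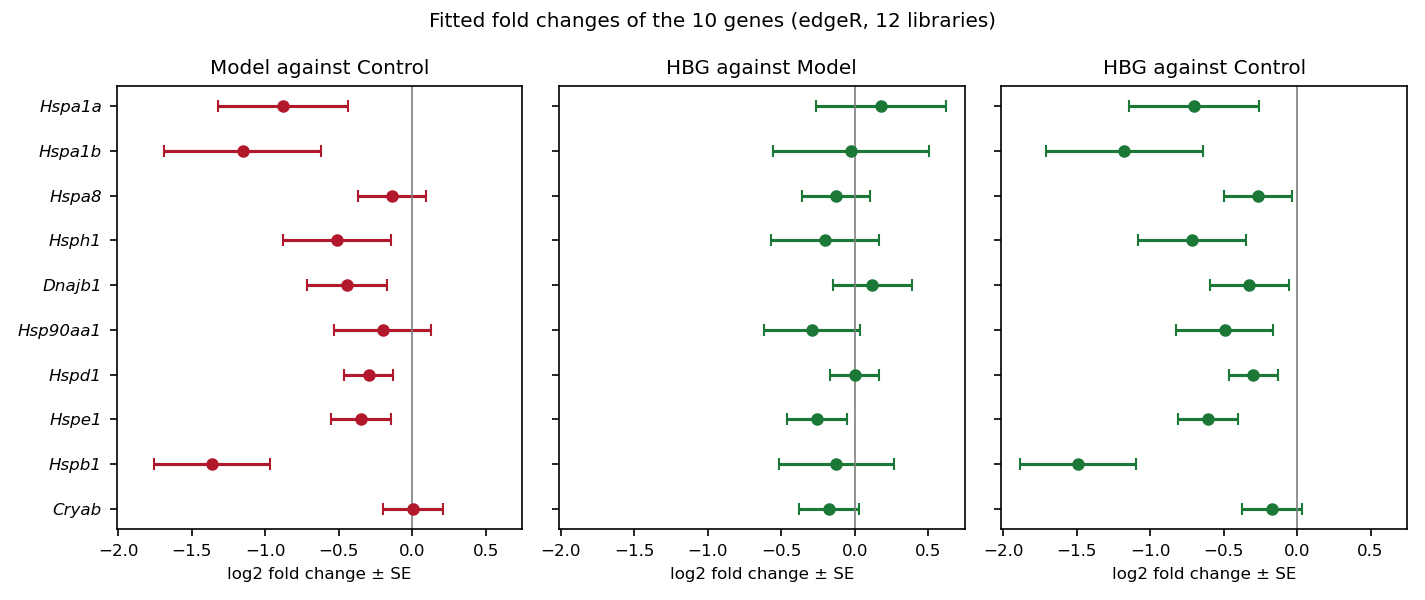
Fitted log2 fold changes of the 10 genes (points, with bars of ± 1 SE, from the fit to all 12 libraries) in 3 panels, Model against Control on the left, HBG against Model in the middle and HBG against Control on the right, with 0 marked. Hspb1 is the farthest from 0 in both comparisons with Control, at -1.36 and -1.49, and most members of HBG against Model lie within 1 SE of 0.

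Hspa1a (ENSMUSG00000091971) and Hspa1b (ENSMUSG00000090877) encode the stress-inducible cytosolic HSP70. Hspa1a had 21.7, 13.1, 29.3 and 20.4 CPM in HBG 1 to 4, 16.6, 25.1, 16.7 and 16.1 CPM in Model 1 to 4, with 18.6, 22.7, 77.5 and 18.3 CPM in Control 1 to 4. Hspa1b had 26.0, 14.6, 28.2 and 16.9 CPM in HBG, 23.5, 28.8, 20.5 and 14.4 CPM in Model, with 20.8, 25.8, 124 and 22.9 CPM in Control. In both genes Control 3 stood alone at the top and the other 11 libraries overlapped. Their fold changes were -0.88 ± 0.44 and -1.15 ± 0.53 in Model against Control (edgeR adjusted p = 0.475 and 0.433), and without Control 3 they were -0.096 and -0.093. In HBG against Control the values were -0.70 ± 0.44 and -1.18 ± 0.53 (edgeR adjusted p = 0.701 and 0.601), and without Control 3 they were 0.082 for Hspa1a, which turns the sign, and -0.12 for Hspa1b.

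The coding sequences of this pair are 99.43% identical, with 11 of 1929 aligned positions different, and 39.7% of the 150-base windows of the Hspa1a transcript occur elsewhere, nearly all in Hspa1b. How reads were divided between the genes is therefore uncertain, and the sum was examined too. It was 47.7, 27.7, 57.4 and 37.3 CPM in HBG, 40.1, 54.0, 37.2 and 30.6 CPM in Model, with 39.5, 48.5, 202 and 41.3 CPM in Control. The means were 42.5 ± 12.9 CPM in HBG and 40.5 ± 9.84 CPM in Model (SD, n = 4 each), and the Control mean was 82.7 ± 79.3 CPM with Control 3 (n = 4) and 43.1 ± 4.80 CPM without it (n = 3). The summed fold change was -1.03 ± 0.49 in Model against Control and 0.07 ± 0.49 in HBG against Model (edgeR adjusted p = 0.444 and 1.0). Hspa1b over Hspa1a ran from 0.827 to 1.60 between libraries with a median of 1.14, and its highest value was in Control 3. The germ-cell relative Hspa1l, with fewer reads, amounted to at most 24.9% of Hspa1b in a library. For Hspa1a, the overlapping gene Gm20481 lies on the opposite strand, and the sources used here do not say whether counting used strand.

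Hspa8 (ENSMUSG00000015656) encodes the constitutive cytosolic HSC70, which folds new proteins and uncoats clathrin vesicles. It had 1667, 1629.9, 1550.0 and 1962 CPM in HBG, 1928, 1469, 2244 and 1796 CPM in Model, with 1666, 2254, 2967 and 1299 CPM in Control. The Control libraries hold both the lowest and the highest value and enclose the other groups. Its fold change was -0.14 ± 0.23 in Model against Control, and 0.09 without Control 3. In HBG against Control it was -0.27 ± 0.23, and -0.038 without Control 3. Its coding sequence is 73.9% identical to that of Hspa1a. Small nucleolar RNA genes lie inside it and processed copies share 55.4% of its 150-base windows, although those copies held at most 0.0379% of its counts.

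Hsph1 (ENSMUSG00000029657) encodes HSP110, a nucleotide exchange factor of HSP70. Its levels were 158, 103, 68.3 and 147 CPM in HBG, 122, 85.7, 168 and 172 CPM in Model, with 119, 267, 287 and 109 CPM in Control. Control 2 and Control 3 lay above every other library, and HBG 3 was the lowest of all 12. The fold change was -0.51 ± 0.37 in Model against Control and -0.72 ± 0.37 in HBG against Control (edgeR adjusted p = 0.617 and 0.630). Without Control 3 these were -0.28 and -0.48, and without Control 2 they were -0.34 and -0.54.

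Dnajb1 (ENSMUSG00000005483) encodes HSP40, the J-domain partner of inducible HSP70. It had 45.8, 39.7, 62.9 and 44.1 CPM in HBG, 42.7, 45.9, 49.3 and 39.4 CPM in Model, with 42.3, 68.9, 95.3 and 34.6 CPM in Control. HBG and Model lay within the Control range. Its fold change was -0.44 ± 0.27 in Model against Control and 0.12 ± 0.27 in HBG against Model (edgeR adjusted p = 0.546 and 1.0). Without Control 3 the first of these was -0.14. Unlike in most members, HBG 3 was the highest HBG library here, as it was for Hspa1a and Hspa1b.

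Hsp90aa1 (ENSMUSG00000021270) encodes the inducible cytosolic HSP90. Its levels were 838, 629, 410.0 and 836 CPM in HBG, 817, 454, 1024 and 1025 CPM in Model, with 708, 1269.6, 1247 and 592 CPM in Control. HBG 3 and Model 2 were the lowest of their groups and of all libraries, and Control 2 and Control 3 the highest. The fold changes were -0.20 ± 0.33 in Model against Control, -0.29 ± 0.33 in HBG against Model and -0.49 ± 0.33 in HBG against Control (lowest edgeR adjusted p = 0.711). Without Model 2 the first of these was 0.0027, without Control 2 it was -0.043 and without Control 3 it was -0.051.

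Hspd1 (ENSMUSG00000025980) and Hspe1 (ENSMUSG00000073676) encode the HSP60 ring and its HSP10 lid, which enclose proteins in the mitochondrial matrix. Hspd1 had 157, 130.2, 122 and 157 CPM in HBG, 141, 121, 152 and 152 CPM in Model, with 141, 215, 207 and 132 CPM in Control. Its means in HBG and Model were 141 ± 18.05 and 141 ± 14.8 CPM (SD, n = 4 each), a fold change of -0.00049 ± 0.17. Hspe1 had 46.0, 42.8, 34.6 and 48.1 CPM in HBG, 57.2, 34.8, 56.3 and 56.1 CPM in Model, with 53.8, 77.5, 81.8 and 47.4 CPM in Control. For both genes Control 2 and Control 3 were above all HBG and Model libraries, and Control 1 and Control 4 lay among them. Hspd1 had -0.30 ± 0.17 in Model against Control, and -0.19 without Control 2 or -0.21 without Control 3. The Hspe1 fold change in that comparison was -0.35 ± 0.20, and -0.27 without Control 2 or -0.23 without Control 3. It was -0.61 ± 0.20 in HBG against Control, with a p of 0.0122 before and 0.476 after adjustment in edgeR. The 2 genes overlap on opposite strands, so part of the reads could belong to either.

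Hspb1 (ENSMUSG00000004951) encodes HSP25 (HSP27 in humans), a small heat shock protein that binds actin and is abundant in muscle and epithelium. It had 58.6, 43.5, 20.4 and 59.2 CPM in HBG, 39.2, 30.2, 56.0 and 72.8 CPM in Model, with 98.6, 172, 173 and 67.4 CPM in Control. Every HBG library lay below every Control library. In Model 3 of 4 libraries did, and Model 4 was above Control 4. The means were 45.4 ± 18.2 CPM in HBG, 49.6 ± 18.9 CPM in Model and 128 ± 53.1 CPM in Control (SD, n = 4 each). The fold change was -1.36 ± 0.39 in Model against Control, with a p of 0.00485 before and 0.214 after adjustment in edgeR. It was -1.49 ± 0.40 in HBG against Control (p of 0.00279 before and edgeR adjusted p = 0.280 after) and -0.13 ± 0.39 in HBG against Model.

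The adjusted p of Hspb1 in Model against Control was 0.0258 by DESeq2 and 0.0266 by limma-voom with quality weights, and in HBG against Control 0.0179 by DESeq2 and 0.0996 by limma-voom. With a correction for GC content and length it was 0.255 in Model against Control and 0.306 in HBG against Control in edgeR. Hspb1 has the highest GC content of the members, 61.7%, against 43.7% in Hsp90aa1. Its pseudogene Hsp25-ps1, which shares 36.6% of its 150-base windows, held at most 0.248% of its counts. Heart muscle also expresses HSP25, and cardiac muscle markers (18 genes, all detected in each group) summed to 387–3953 CPM in HBG, 393–3713 in Model and 983–6565 in Control. Their part in the Hspb1 difference was not tested.

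Cryab (ENSMUSG00000032060) encodes alphaB-crystallin, the small heat shock protein of lens and muscle. It had 267, 226, 159 and 264 CPM in HBG, 259.98, 185, 305 and 285 CPM in Model, with 258, 303, 282 and 191 CPM in Control. In each group 1 library lay well below the rest, HBG 3, Model 2 and Control 4. Cryab was the member with the smallest fold change in Model against Control, 0.0024 ± 0.20, and had -0.18 ± 0.20 in HBG against Model. It overlaps Hspb2 on the opposite strand, which had 6.02 ± 1.60 CPM in HBG, 5.64 ± 0.807 in Model and 7.55 ± 1.045 in Control.

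**Figure D3:**
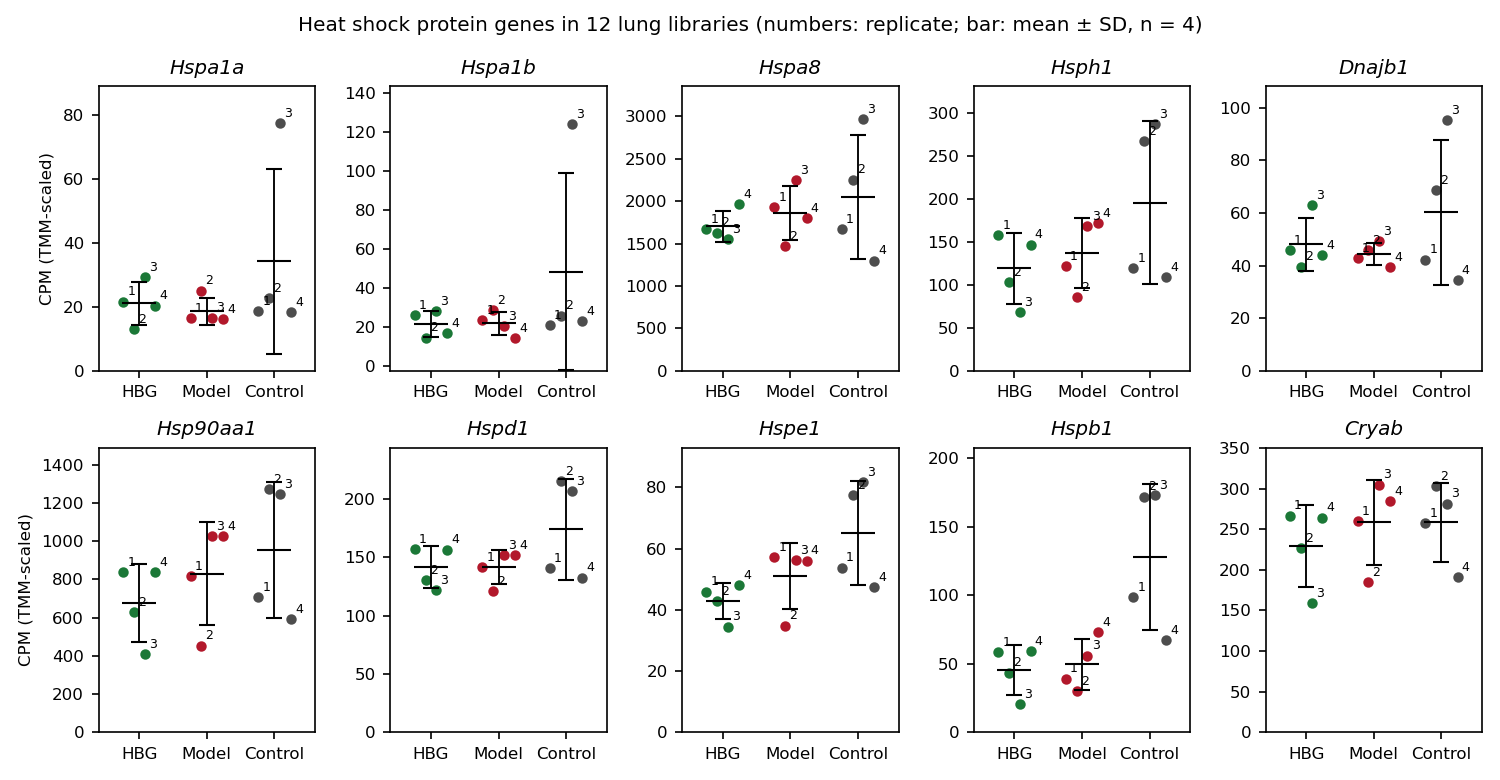
CPM (TMM-scaled, linear axes) of each of the 10 genes in HBG, Model and Control, with points numbered by replicate and bars of mean ± SD (n = 4). Control 3 stands alone for Hspa1a and Hspa1b (77.5 and 124 CPM), Control 2 and Control 3 lie above the other libraries for Hsph1, Hspd1 and Hspe1, and the HBG points of Hspb1 lie below all Control points.

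Libraries of the same group differed in their mean heat shock level, although not all of the 10 genes took part alike. Averaged over the members, the deviation from the mean library on the log2 scale was lowest in HBG 3 (-0.428) and HBG 2 (-0.376) among HBG libraries and in Model 2 (-0.374) among Model libraries. Among Control libraries it was 1.04 in Control 3, 0.549 in Control 2, -0.042 in Control 1 and -0.261 in Control 4. HBG 3 held the lowest value of its group for 7 members, Model 2 for 7 and Control 4 for 9, while Control 3 held the highest for 7. In HBG 3 the members ran from -1.59 for Hspb1 to 0.425 for Hspa1a. Leaving out Control 4, Model 2 and HBG 3 together, a choice made after their values were seen, gave a median of -0.46 in Model against Control, -0.11 in HBG against Model and -0.67 in HBG against Control. Since these libraries hold many of the lowest values of their groups, the spread that remains is narrower by construction, and no member passed the adjusted edgeR threshold.

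**Figure D4:**
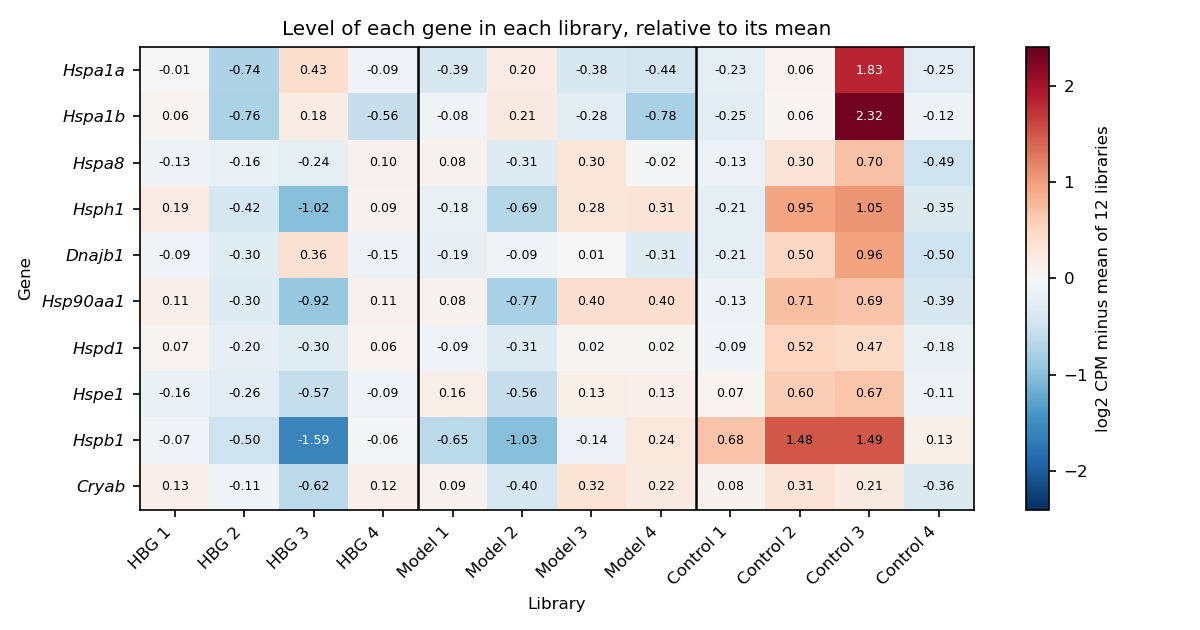
Log2 deviation of each gene (rows) from its mean over the 12 libraries (columns, HBG, then Model, then Control). Control 2 and Control 3 are above the mean for most genes, HBG 3, Model 2 and Control 4 are below it for most, and Hspa1a and Hspa1b are above it in HBG 3 and Model 2.

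Across libraries the members split into more than 1 pattern. Pearson's r of log2 CPM over the 12 libraries, which share their depth scaling, was 0.966 between Hsph1 and Hsp90aa1, 0.962 between Hsph1 and Hspd1 and 0.942 between Hsp90aa1 and Cryab. Hspa1a and Hspa1b, which share sequence, had 0.955 with each other, but 0.192 and 0.241 with Hsp90aa1 and -0.029 and 0.028 with Cryab. The genes most like Hsp90aa1 among 14098 compared were Stip1 (HOP, which links HSP70 to HSP90) with 0.968, Ahsa1 (an activator of the HSP90 ATPase) with 0.964, the mitochondrial genes mt-Cytb (0.950) and mt-Co1 (0.939), and Ndufa12 (0.937). Without HBG 3 and Model 2, the libraries farthest in Hsp90aa1, these were 0.956, 0.935, 0.895, 0.871 and 0.873.

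Stip1 had 170.2, 127, 95.9 and 156 CPM in HBG, 153, 107, 167 and 204 CPM in Model, with 138, 206, 233 and 108 CPM in Control, the same libraries being low as in Hsp90aa1. For the sum of Hspa1a and Hspa1b the nearest genes were Dnaja1 (a J-domain protein, 0.803), Tex30 (0.789), Gtf2ird2 (0.782), Dedd2 (0.709) and Trim65 (0.692). Without Control 3 and HBG 2 the value was 0.11 for Dnaja1, 0.406 for Tex30, 0.337 for Gtf2ird2, 0.697 for Dedd2 and 0.320 for Trim65, and Dnaja1 itself had 484 CPM in Control 3. Cryab was nearest to Slc18b1 (0.963), Naa35 (0.950), Ube2m (0.949), Ddit4l (0.940) and Dlst (0.939). Without HBG 3 and Model 2 these were 0.915, 0.858, 0.853, 0.830 and 0.835.

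**Figure D5:**
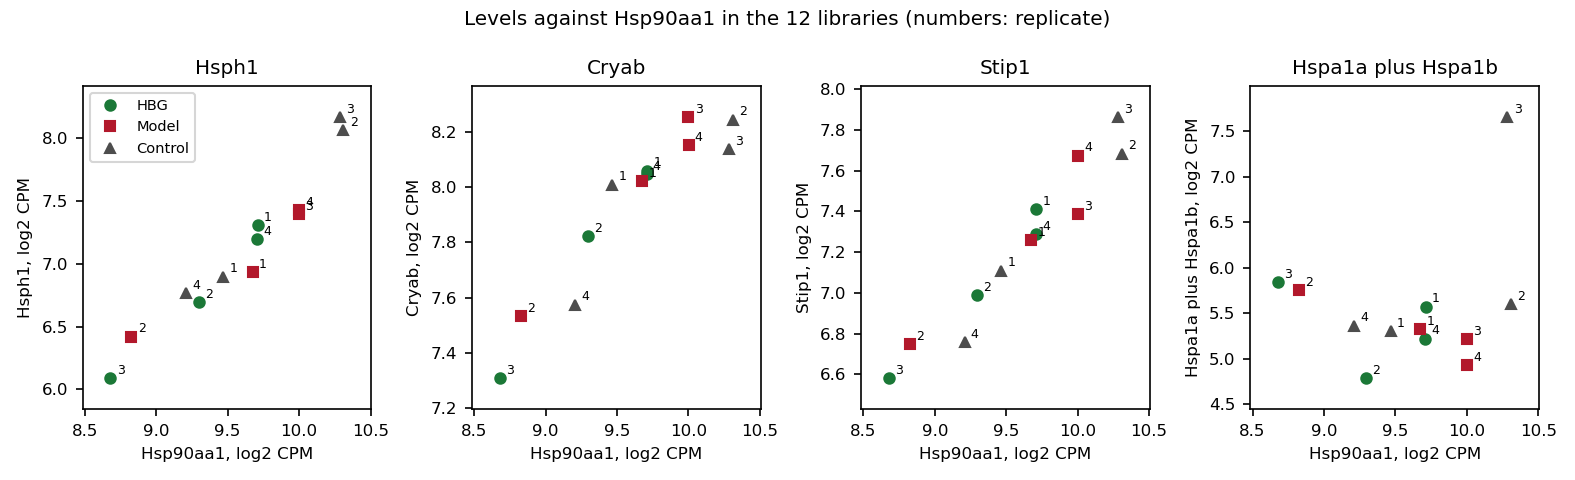
Each of the 12 libraries is a point, coloured by group and numbered by replicate, with Hsp90aa1 on the x axis and Hsph1, Cryab, Stip1 or the sum of Hspa1a and Hspa1b on the y axis, all in log2 CPM. Hsph1, Cryab and Stip1 run up with Hsp90aa1 through all 3 groups, whereas the sum shows no such line and has Control 3 far above the rest.

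In edgeR, the other genes of the chaperone network gave no calls. Of all genes, 0.348% passed in Model against Control, 0% in HBG against Model and 0.151% in HBG against Control. With shares this low, lists of this size are expected to hold few calls or none. None passed in any of the 3 comparisons among 11 other HSP70 genes, 3 other HSP90 genes, 18 other J-domain genes, 6 other small heat shock protein genes, 18 co-chaperones, 8 subunits of the cytosolic chaperonin TRiC, 10 mitochondrial chaperones and proteases and 5 heat shock factors and regulators. In Model against Control their median fold changes were 0.031 for HSP70, 0.0077 for HSP90, 0.0050 for J-domain, -0.37 for small heat shock, -0.096 for co-chaperone, -0.022 for TRiC, -0.0076 for mitochondrial and -0.015 for heat shock factor genes. By limma-voom, Hspa13 passed in Model against Control (adjusted p = 0.0468), and Fkbp5, described below, passed in that comparison by both other tools. There limma-voom called 6.05% of all genes and DESeq2 2.5%. All 6 of the small heat shock genes had lower fold changes, where 48.5% of all genes did, and 5 without Control 2, with a median of -0.21. Several of them are muscle genes, and the 18 cardiac muscle markers were all lower in the same comparison, with a median of -1.198, or -0.66 without Control 2. The part of muscle in the small heat shock values was not tested. The heart and muscle member Hspb7, with -0.73 ± 0.69 in Model against Control, had 61.8 ± 45.6 CPM in HBG, 41.8 ± 32.6 in Model and 69.1 ± 39.1 in Control.

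Of the co-chaperones, Fkbp5, a steroid receptor partner of HSP90 that glucocorticoids induce, had 29.3, 44.3, 24.2 and 45.6 CPM in HBG, 37.0, 36.9, 43.7 and 60.4 CPM in Model, with 24.8, 21.5, 23.6 and 22.5 CPM in Control. All Model libraries lay above all Control libraries, a separation in 4.21% of all genes, with a fold change of 0.95 ± 0.21 (edgeR adjusted p = 0.116, DESeq2 adjusted p = 0.00366 and limma-voom 0.00811). In HBG against Control the limma-voom adjusted p was 0.0296, where that tool called 0.567% of all genes. Bag1, an exchange factor of HSP70, had 163 ± 24.8 CPM in HBG, 156 ± 30.3 in Model and 211 ± 26.9 in Control (Model against Control -0.43 ± 0.16, edgeR adjusted p = 0.327). The J-domain genes of smallest p were Dnajc5, a vesicle chaperone, at 0.31 ± 0.11, and Dnajb4 at -0.40 ± 0.14 (edgeR adjusted p = 0.293 and 0.309).

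Among HSP70 and HSP90 relatives, Hspa13 had a fold change of 0.21 ± 0.11 and mitochondrial Hspa9 -0.14 ± 0.11 in Model against Control. The endoplasmic reticulum protein Hsp90b1 had 782 ± 66.1 CPM in HBG, 966 ± 177 in Model and 935 ± 162 in Control, and constitutive Hsp90ab1 1289 ± 181, 1568 ± 308 and 1626 ± 479 CPM in the same groups. Cct4 and Cct8 of TRiC had -0.11 ± 0.11 and -0.072 ± 0.094, and Grpel2 and Yme1l1 of mitochondria 0.15 ± 0.093 and 0.13 ± 0.086. Hsf1, the factor that drives the response, ranged from 27.4 to 36.4 CPM over all libraries. Hsf2bp (1.146 ± 0.55) stayed under 1 CPM on average in Model and Control, and Hsf4 had -0.31 ± 0.19.

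Immediate early genes, many of which rise within minutes of stress or tissue handling, were followed because they share triggers with the heat shock response. Of 24 tested in edgeR, Jund alone passed in Model against Control and in HBG against Control, where 0.348% and 0.151% of all genes passed. Jund had 99.9, 67.9, 52.9 and 86.6 CPM in HBG, 81.1, 58.7, 83.2 and 72.2 CPM in Model, with 339, 395, 273 and 220.4 CPM in Control. All 4 Control libraries lay above all others, and Jund fell by 2.05 ± 0.22 in Model against Control and by 1.997 ± 0.22 in HBG against Control on the log2 scale (edgeR adjusted p = 0.00157 and 0.00249). It passed under all 19 alternatives in both comparisons. Klf2 also passed by DESeq2 in both, where that tool called 2.5% and 1.15% of all genes. By limma-voom, which called 6.05% of all genes, Klf2 and Jun passed in Model against Control. For the list, 22 of the 24 fold changes were lower in Model against Control, with a median of -0.75, and 23 in HBG against Control, with a median of -0.85, where 48.5% and 49% of all genes were lower. Without Control 2 these were 16 of 24 with a median of -0.19 and 17 of 24 with a median of -0.10. Its score was 1.71 in Control 2 and 0.365 in Control 3, the libraries with the highest heat shock values, and its summed level was 2016–2943 CPM in HBG, 2184–2769 in Model and 2231–9583 in Control. How far that list and the 10 members share a source was not tested.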

How the data were processed

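Polyadenylated lung RNA was sequenced as paired reads of 150 bases from stranded libraries, per the labels. The deposited table holds estimated counts per gene, a unit read from the values, since 10.0–15.1% of a library's values are not whole. The submitters' processing notes name STAR 2.7.9a, HISAT2, featureCounts 2.0.1, HTSeq, fastp, cutadapt, Trimmomatic 0.39, FastQC 0.11.9 and DESeq2 1.34.0 with builds GRCm39 and mm10. Their roles are not given in the sources used here.

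Counts were rounded. Testing used edgeR 4.0.16 (limma 3.58.1, R 4.3.3): TMM factors, filterByExpr, a quasi-likelihood F test on all 12 libraries with group as the only term, two-sided, adjusted by Benjamini-Hochberg over 17827 genes, threshold 0.05. Standard errors come from the F statistic. DESeq2 1.42.0 was an alternative. Genes most like a member had a mean of at least 1 CPM. Sequence identity, GC content and overlaps were read from GENCODE M21 transcripts, and promoters from RefSeq (GRCm38.p6). The test was checked on simulated counts, drawn for each gene apart and without outlying libraries, so the check does not cover such libraries. The pathway genes named are those past the threshold, or otherwise the 2 of smallest p in Model against Control from each list. Members and lists were chosen with earlier results of these data known.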

Additional observations from a re-analysis of the deposited data

Results flagged for a closer look

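Of 33 sets of 4 libraries (each member, and Hspa1a plus Hspa1b, in each group), 5 held a library far from the other 3 by Dixon's ratio against its 95% critical value. Chance gives about 1 in 20 such sets, and the values of Hspa1a, Hspa1b and their sum are not independent.

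Control 3 had 77.5 CPM of Hspa1a, with 22.7 CPM in the next Control library. Hspa1b in Control 3 had 124 CPM, with 25.8 CPM next, and the sum 202 CPM, with 48.5 CPM next. Model 2 had 25.1 CPM of Hspa1a, with 16.7 CPM next. It also had 34.8 CPM of Hspe1, with 56.1 CPM in the nearest Model library.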

How the results depend on the processing

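The number of members past the threshold was 0 in each comparison and stayed 0 without each library in turn. DESeq2 passed 1 in Model against Control and 1 in HBG against Control, and limma-voom with quality weights 1 in Model against Control. Over all genes, Model against Control gave 444 calls by DESeq2 (198 higher, 246 lower), 1079 by limma-voom (620 higher, 459 lower) and 23 to 67 without each library, the lowest without Control 3. HBG against Control gave 205 calls by DESeq2 (49 higher, 156 lower), 101 by limma-voom (9 higher, 92 lower) and 16 to 25 without each library, the lowest without Control 3. HBG against Model gave 4 by DESeq2. The edgeR split was 9 higher and 53 lower in Model against Control, and 4 higher and 23 lower in HBG against Control. Leaving out each library moved the members' median between -0.57 and -0.12 in Model against Control, -0.26 and -0.037 in HBG against Model, and -0.71 and -0.17 in HBG against Control.

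The labels do not say whether replicate numbers mark a shared animal, litter or day. Same-numbered libraries had correlations of deviations of -0.197 to 0.158 (Model and Control), -0.195 to 0.481 (HBG and Model) and -0.357 to -0.102 (HBG and Control). With 4 such values in a comparison, these do not settle whether the libraries are paired. With the replicate number as a block, 25 genes passed in Model against Control and 17 in HBG against Control, and no member.

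Signs turned as follows, and the cause was not tested. Most turns concern fold changes near 0. Larger ones were Hspa1a in HBG against Control (-0.70) and Hsp90aa1 (-0.20) and Hspa8 (-0.14) in Model against Control. In HBG against Model they were Hspa1a (0.18), Hspb1 (-0.13) and Dnajb1 (0.12). Cryab in Model against Control was -0.027 (upper-quartile factors), -0.014 (a mean of at least 1 CPM), -0.0040 (replicate block) and -0.0024 (Control 4, Model 2 and HBG 3 left out together, chosen after seeing the data). In HBG against Model, Hspa1b was 0.073 when summed with Hspa1a and 0.024 with the GC content and length correction, also chosen after seeing the data, and Dnajb1 -0.091 by limma-voom and -0.013 without the 3 libraries. Hspd1 there was 0.0109 by DESeq2 and with RLE factors, 0.022 with upper-quartile factors, 0.0094 with no filter, 0.0114 with 2 groups, 0.0039 with the block and 0.0026 without the 3 libraries or with the GC content correction. Leaving out each library gave, in Model against Control, -0.32 to 0.090 for Hspa8, -0.38 to 0.0027 for Hsp90aa1, -0.13 to 0.13 for Cryab, -0.067 to 0.17 for Hsp90b1 and -0.21 to 0.11 for Hsp90ab1. In HBG against Model it gave -0.30 to 0.12 for Hspb1, -0.019 to 0.36 for Hspa1a, -0.19 to 0.14 for Hspa1b, -0.038 to 0.20 for Dnajb1 and -0.070 to 0.064 for Hspd1. In HBG against Control it gave -0.92 to 0.082 for Hspa1a. With 4 libraries a group and the wide Control spread, differences of the size of most members could not be separated from 0.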
